A study of Mus musculus with 8 samples.

Results

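The 10 synaptotagmin genes Syt1, Syt2, Syt3, Syt4, Syt5, Syt6, Syt7, Syt9, Syt10 and Syt11 were followed through the annotated cells of the adult mouse prefrontal cortex (PFC) and striatum. They were taken by symbol from the 31053 genes of the 8 single-cell RNA-seq count matrices, and all 10 were found. The libraries were made on the 10x Chromium platform from C57BL/6N male mice labelled 8 to 10 weeks old, an age that the study's methods give as older. WT mice carried no treatment, and Setd1a+/- mice were heterozygous for a CRISPR-Cas9 frameshift in exon 15 of Setd1a, an H3K4 methyltransferase gene, kept as 1 mutant line. Each tissue had 2 WT and 2 Setd1a+/- libraries, and every library pooled 2 mice. The second tissue is labelled nucleus accumbens (NAc) and described in the study's methods as striatum, the name used here.

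Synaptotagmins are membrane proteins of secretory vesicles with paired C2 domains. In the classic members these domains bind calcium and couple its entry to SNARE-driven membrane fusion. Syt1, Syt2 and Syt9 act as fast calcium sensors of transmitter release, Syt7 is a slower sensor with high calcium affinity, and Syt5 resides on dense-core and synaptic vesicles. Syt3, Syt6 and Syt10 form a group whose members pair through disulfide bonds near the N terminus. Syt4 and Syt11 share a substitution in the first C2 domain that removes its calcium binding, and both are linked to vesicle traffic outside fast release.

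The files held 8997 annotated PFC cells and 14690 annotated striatal cells, and libraries totalled between 15154268 and 26277553 unique molecular identifiers (UMIs). Annotated cells numbered 1508 to 4361 per library with median depths of 2302.5 to 3042 UMIs, and any pair of libraries shared between 1 and 24 cell barcodes. Setd1a itself stood at 8.45 and 11.2 CPM (counts relative to 1000000 UMIs) in the PFC WT libraries and at 5.59 and 9.33 CPM in the Setd1a+/- libraries. In the striatum it stood at 13.4 and 15.2 CPM in WT against 9.16 and 12.5 CPM in Setd1a+/-. Each mutant library was below the WT library of its own number in both tissues, and in the PFC the genotypes overlapped. Defining markers were highest in their own cell type for 24 of 24 genes in the PFC and 28 of 30 in the striatum, where Gad2 and Slc32a1 were higher in D1 medium spiny neurons (MSNs) than in the striatal interneurons. The endothelial groups of both tissues also held the mural marker Rgs5 at 2057 to 3004 CPM.

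Promoter sequences are shown for Syt6, Syt10 and Syt3, the 3 members called between cortical layers in the comparison given below, and for Syt11, highest in the oligodendrocyte lineage, and the pan-neuronal member Syt1 as contrasts. They were read from a set of RefSeq promoters on GRCm38.p6, from which windows were taken for 7 of the 10 members. None was taken for Syt4, Syt5 and Syt7, which does not show that RefSeq lacks them. The 250 bases upstream of the transcription start were chr3:103574995-103575244 on the plus strand for Syt6, chr15:89841861-89842110 on the minus strand for Syt10, chr7:44383876-44384125 on the plus strand for Syt3, chr3:88772600-88772849 on the minus strand for Syt11 and chr10:109010976-109011225 on the minus strand for Syt1. Syt6 had 3 windows and Syt1 had 2, and the one nearest the GENCODE gene start is shown. The Syt11 window belongs to a start 2565 bases inside the GENCODE gene, whereas the others shown lie 0 to 24 bases from theirs. Capitals mark the GC box GGGCGG or its reverse complement and the half-site TGACG or its reverse complement, searched on both strands.
Syt6: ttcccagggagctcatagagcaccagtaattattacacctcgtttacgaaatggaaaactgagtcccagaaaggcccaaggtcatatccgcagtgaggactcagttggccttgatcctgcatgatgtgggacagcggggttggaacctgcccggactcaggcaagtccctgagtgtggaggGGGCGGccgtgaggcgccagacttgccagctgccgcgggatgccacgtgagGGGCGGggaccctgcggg
Syt10: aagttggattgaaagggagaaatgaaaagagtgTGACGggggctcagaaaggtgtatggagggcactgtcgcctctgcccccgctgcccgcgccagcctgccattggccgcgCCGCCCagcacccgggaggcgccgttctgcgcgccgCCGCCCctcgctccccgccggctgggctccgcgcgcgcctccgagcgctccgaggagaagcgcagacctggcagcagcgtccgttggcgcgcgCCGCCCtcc
Syt3: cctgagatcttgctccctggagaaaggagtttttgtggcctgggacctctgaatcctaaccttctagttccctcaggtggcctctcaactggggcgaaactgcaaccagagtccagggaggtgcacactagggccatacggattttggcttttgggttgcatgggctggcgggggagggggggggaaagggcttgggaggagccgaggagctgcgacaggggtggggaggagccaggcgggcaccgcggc
Syt11: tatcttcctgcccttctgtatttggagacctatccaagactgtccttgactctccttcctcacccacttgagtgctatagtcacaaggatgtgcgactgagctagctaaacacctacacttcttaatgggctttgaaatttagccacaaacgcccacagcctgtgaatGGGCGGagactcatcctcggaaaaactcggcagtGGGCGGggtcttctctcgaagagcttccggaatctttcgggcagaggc
Syt1: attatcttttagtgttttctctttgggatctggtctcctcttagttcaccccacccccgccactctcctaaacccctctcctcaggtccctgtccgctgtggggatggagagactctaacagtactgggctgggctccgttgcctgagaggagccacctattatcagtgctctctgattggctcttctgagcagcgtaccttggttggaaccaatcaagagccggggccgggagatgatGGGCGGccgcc
The Syt10 window was 72.0% G or C with 32 CpG dinucleotides, against medians of 52.4% and 6 over all 32817 promoter windows of the same length. Its GC boxes lay 138, 102 and 9 bases before the start, and a TGACG lay 217 bases before it. The Syt6 window was 60.4% G or C with 13 CpG and had GC boxes 69 and 18 bases before the start, and the Syt3 window was 62.4% with 8 CpG and no GC box. The Syt11 window was 51.2% with 9 CpG and boxes at 82 and 48, and the Syt1 window was 56.4% with 8 CpG and 1 box at 11. The windows not shown were 62.8% and 66.0% G or C with 2 and 1 GC boxes for Syt6, and 42.8% with none for Syt1. A GC box occurred in 32.7% of all windows and TGACG in 17.7%, so a match in these windows describes the letters only.

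Levels below are CPM of UMIs pooled by cell type within 1 library, with the mean and SD over the 4 libraries of a tissue (n = 4), WT libraries named first. UMI counts are not scaled by transcript length, so sizes are compared between cell types for each gene, and a gene's share of the family's UMIs is a share of counts. The same measure in barcodes with 1 to 100 UMIs, which hold no annotated cell, gives the level of free RNA. Of 180 combinations of member and cell type, 48 were above the mean free RNA level, 37 of them among the 50 neuronal combinations and 11 among the other 130. In 37 of the 48 every library was above its own free RNA level, 30 in neurons and 7 outside them. The cell types were clustered by the authors from these same cells, so levels by type are a description.

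**Figure D1:**
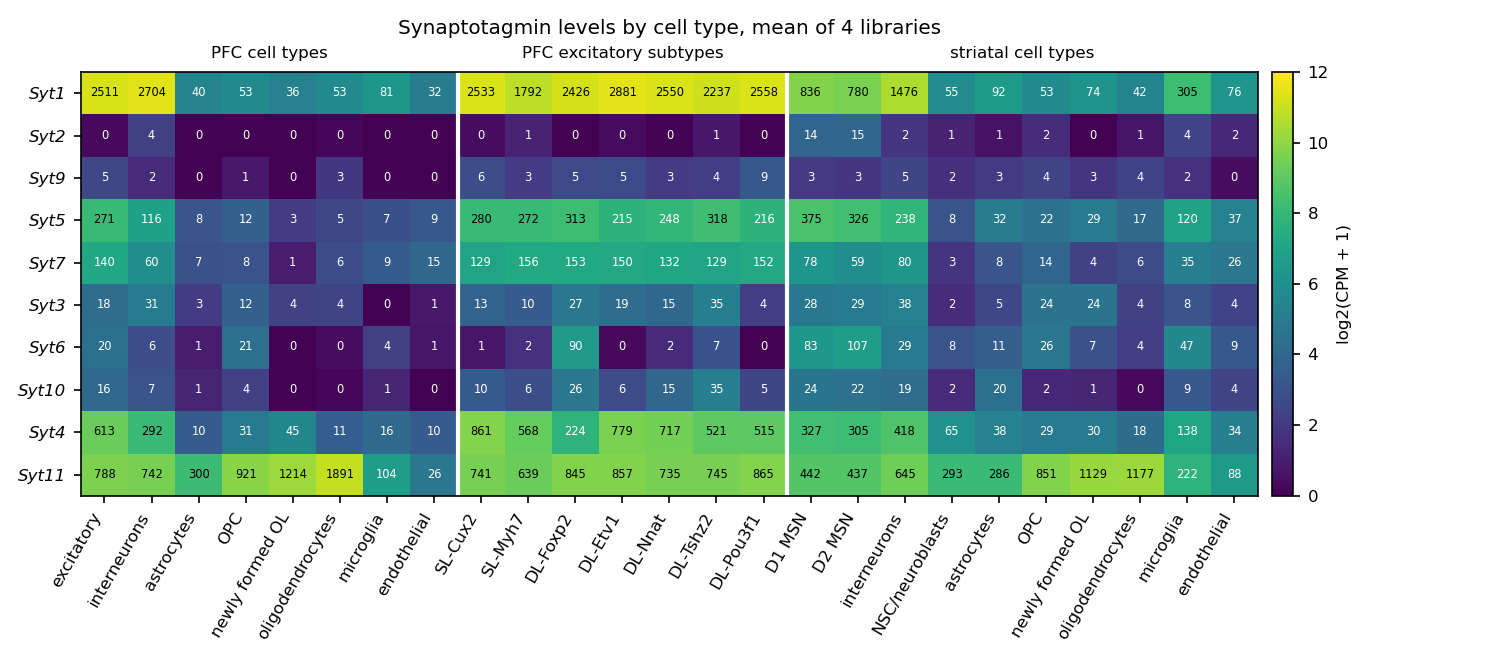
Mean level of each of the 10 synaptotagmin genes in the 8 PFC and 10 striatal cell types, with the 7 PFC excitatory subtypes between them. Each cell of the map gives the CPM, rounded to whole numbers, over a log2(CPM + 1) colour scale. Syt1 was highest in neurons, Syt11 reached 1891 CPM in PFC oligodendrocytes, and Syt2 and Syt9 were below 15 CPM throughout.

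Among the fast calcium sensors, Syt1 (chr10:108497650-109010982, minus strand, GRCm38) was the most abundant by UMI count in neurons of both tissues. In PFC excitatory neurons (ENs) it stood at 2921 and 2532 CPM in WT against 1999 and 2590 CPM in Setd1a+/-, a mean of 2511 ± 382 CPM. In PFC interneurons (INs) it stood at 2844 and 2635 CPM in WT against 2257 and 3082 CPM in Setd1a+/-. The EN and IN ranges overlapped, and no other PFC type exceeded a mean of 80.9 CPM. Striatal MSNs were lower, with D1 libraries at 906, 840, 880 and 716 CPM and a D2 mean of 780 ± 98.1 CPM, and striatal INs stood between MSNs and cortical neurons at 1691, 1468, 1511 and 1232 CPM. Free RNA carried 924 CPM of Syt1 in the PFC and 481 CPM in the striatum, so every glial level was under it.

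Syt1 was found in 99.5% of EN cells at full depth and in 87.9% after each cell was thinned to 1000 UMIs. In PFC endothelial cells, which should lack it, the shares were 6.66% and 3.14%. Across the 7 excitatory subtypes its mean ran from 1792 CPM in superficial-layer SL-Myh7 neurons to 2881 CPM in deep-layer DL-Etv1 neurons, a 1.61-fold spread in which every neighbouring pair overlapped. Its abundance pattern over the 18 cell types was most like that of Snap25, its SNARE partner (r = 0.987), followed by Nrsn1 (r = 0.978) and A830018L16Rik (r = 0.977). These correlations of log2(CPM + 1) are over cell types that share libraries and depth, and they are descriptions.

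Syt2 (chr1:134646677-134762593, plus strand), the sensor of fast-spiking and hindbrain synapses, had 12 UMIs in all annotated PFC cells and none in 5 of the 8 PFC types, where a count of 0 allows up to 3 UMIs. In the striatum it stood at 13.8 ± 3.45 CPM in D1 and 14.8 ± 4.63 CPM in D2 MSNs, beside 14.5 CPM in free RNA. Striatal INs were lower than both, at 2.45 ± 1.79 CPM. Syt9 (chr7:107370728-107548656, plus strand) had 236 UMIs in all and its EN level was 4.87 ± 0.703 CPM. Both genes were too sparse to rank cell types within a tissue beyond these contrasts.

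Syt7 (chr19:10389090-10453180, plus strand), the slow sensor, was highest in PFC ENs at 119 and 164 CPM in WT against 115 and 163 CPM in Setd1a+/-. All 4 values were above the IN values of 57.2, 83.7, 35.5 and 62.9 CPM, and the INs were below the free RNA level of 84.0 CPM. Striatal neurons stood at 58.9 to 79.6 CPM on average, beside 61.9 CPM in free RNA. Syt5 (chr7:4539765-4547541, minus strand) had a level of 375 ± 46.1 CPM in D1 and 326 ± 44.4 CPM in D2 MSNs against 271 ± 61.0 CPM in ENs. Relative to free RNA, which was 196 CPM in the striatum and 114 CPM in the PFC, these were 1.91, 1.66 and 2.38 times. Syt5 made up 17.0% of the family's UMIs in D1 MSNs and 6.14% in ENs. Its pattern was closest to Dmtn (r = 0.983), Rasgef1a (r = 0.979) and Scn2b (r = 0.978).

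Of the disulfide-linked group, Syt6 (chr3:103575231-103645569, plus strand) was concentrated in 1 cortical subtype. Deep-layer DL-Foxp2 neurons held 397 of the 421 Syt6 UMIs of all ENs, at 72.9 and 112 CPM in WT against 46.1 and 128 CPM in Setd1a+/-. The next subtype, DL-Tshz2, averaged 7.03 CPM, which was 12.8-fold less and below the free RNA level of 11.4 CPM, and its range did not reach that of DL-Foxp2. A Syt6 UMI was seen in 38.6% of DL-Foxp2 cells, 9.29% after thinning, against 1.64% and 0.658% of DL-Tshz2 cells. In the striatum Syt6 was high in D2 (107 ± 10.8 CPM) and D1 (82.6 ± 11.6 CPM) MSNs, both above the 55.0 CPM of free RNA, and striatal INs were below it at 29.2 ± 2.90 CPM. Its closest patterns were those of Ptpn5, a striatum-enriched phosphatase gene (r = 0.956), Ryr3 (r = 0.949) and Ctxn1 (r = 0.934).

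Oligodendrocyte progenitor cells (OPCs) of the PFC also carried Syt6, at 16.5 and 37.8 CPM in WT against 11.8 and 16.1 CPM in Setd1a+/-, or 52 UMIs. This was 1.80 times the free RNA mean, while 5 neuron genes in the same cells stood at a median of 0.0768 times theirs. Striatal OPCs held 64 Syt6 UMIs at 26.0 ± 2.56 CPM, which is below the striatal free RNA level of 55.0 CPM. The 5 neuron genes in these cells stood at 0.0576 to 0.397 times theirs, each lower relative to free RNA than Syt6 was. How much of the Syt6 in OPCs of either tissue was free RNA was not tested.

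Syt10 (chr15:89782393-89841860, minus strand), a sensor of IGF-1 secretion in olfactory bulb neurons, was sparse in the PFC and had its highest means in 2 deep-layer subtypes. DL-Tshz2 neurons averaged 34.8 ± 24.4 CPM and DL-Foxp2 neurons 26.0 ± 18.8 CPM, against 5.73 CPM in DL-Etv1, a 6.08-fold spread from the highest to that subtype. Every neighbouring pair of subtypes overlapped, and these means pool WT and mutant libraries, whose values for DL-Tshz2 and DL-Foxp2 are given separately below. D1 and D2 MSNs stood at 24.0 ± 5.99 and 21.5 ± 6.94 CPM with free RNA at 6.59 CPM. Striatal astrocytes held 36 Syt10 UMIs at 5.15, 20.4, 22.5 and 31.9 CPM, 3.03 times free RNA on average, and PFC astrocytes held 2. Among striatal INs, Syt1 was found in 65.2% of the 66 cells with a Syt10 UMI and in 86.6% of the 755 cells without one, at median depths of 4113 and 4881 UMIs. The same shares were 100% and 96.5% in PFC INs and 100% and 99.5% in ENs. In MSNs they were 90.7% and 88.0% (D1) and 85.7% and 87.9% (D2), all from cells pooled over libraries. Syt3 (chr7:44384102-44400187, plus strand) stood at 18.2 CPM in ENs, 30.8 CPM in PFC INs and 38.2 CPM in striatal INs, the last beside 38.8 CPM in free RNA.

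**Figure D2:**
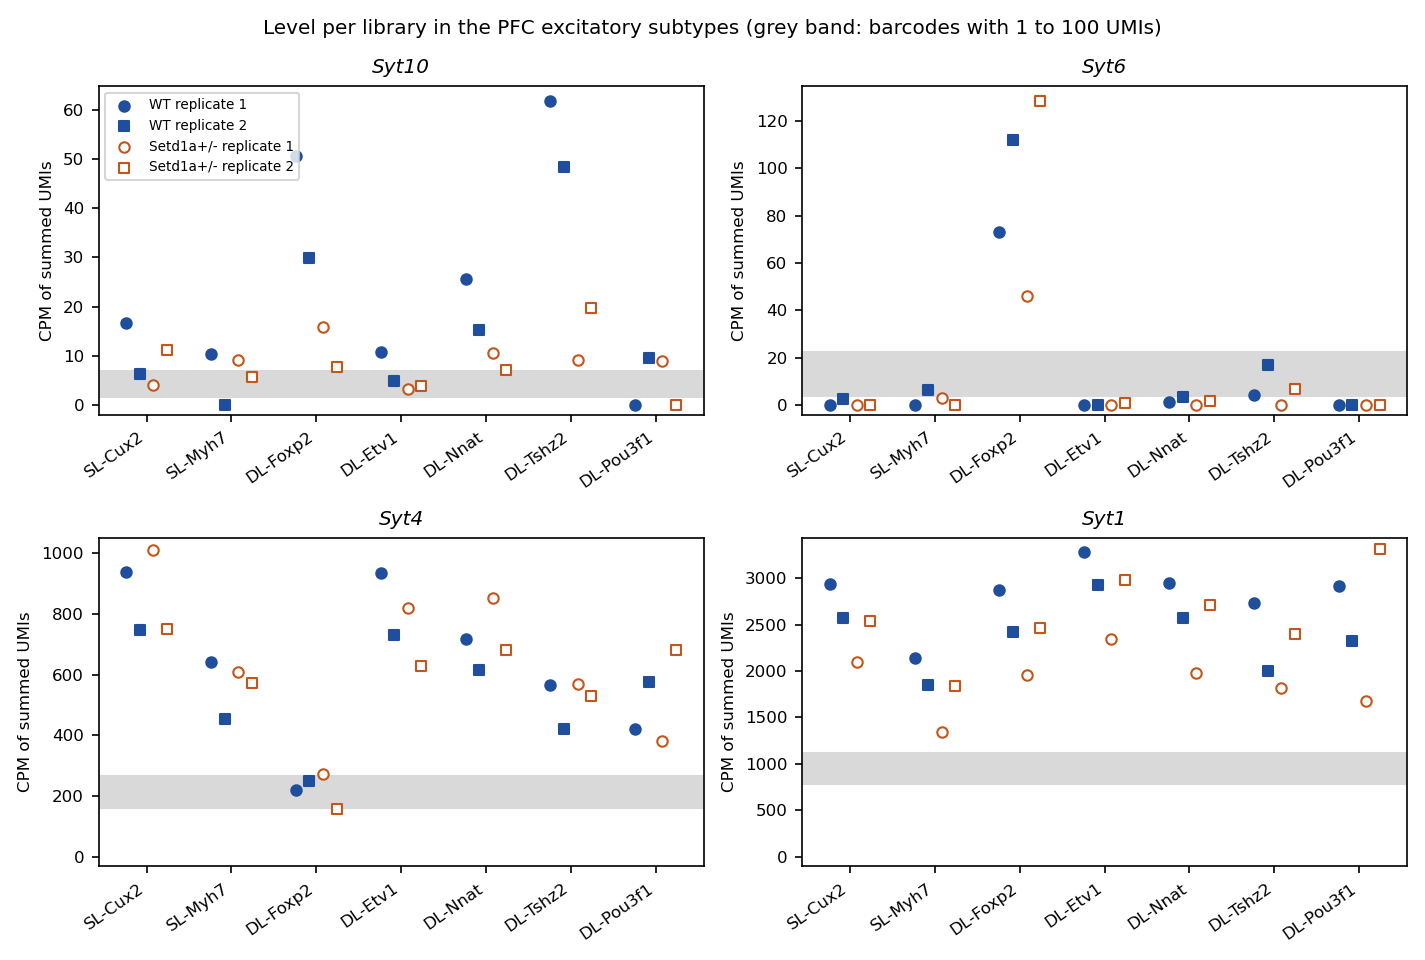
Levels of Syt10, Syt6, Syt4 and Syt1 in the 7 PFC excitatory subtypes, in CPM on separate linear axes, with 1 point per library (filled, WT; open, Setd1a+/-) and a grey band from the lowest to the highest free RNA value. Syt6 was high in DL-Foxp2 (mean 89.9 CPM, next subtype 7.03 CPM), Syt4 was lowest there (224 CPM), and Syt10 had its highest means in DL-Tshz2 and DL-Foxp2, with overlapping libraries.

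Syt4, which moves on dense-core vesicles and has a postsynaptic role, varied between the excitatory subtypes more than Syt1 or Syt11. SL-Cux2 neurons had 938, 746, 1010 and 751 CPM and DL-Foxp2 neurons 219, 250, 272 and 157 CPM. The groups did not overlap, the mean ratio was 3.84, and the DL-Foxp2 mean of 224 CPM was below the 232 CPM of free RNA. The subtype richest in Syt6 was thus the poorest in Syt4. Syt4 made up 19.0% of the family's UMIs in SL-Cux2 and 5.57% in DL-Foxp2. Its pattern over cell types was most like Mllt11 (r = 0.967), Celf4 (r = 0.963) and Chd3os (r = 0.963).

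Syt11 (chr3:88744700-88775164, minus strand) was highest in the oligodendrocyte lineage. PFC oligodendrocytes stood at 2293 and 1783 CPM in WT against 1790 and 1698 CPM in Setd1a+/-, a mean of 1891 ± 271 CPM. Earlier stages of the lineage were lower, with OPCs at 921 ± 137 CPM and newly formed oligodendrocytes at 1214 CPM, and oligodendrocytes were 2.4-fold above ENs (788 ± 106 CPM) and 71.5-fold above endothelial cells (26.4 ± 2.30 CPM). In the striatum OPCs (851 ± 120 CPM) were again lower, and oligodendrocytes (1177 ± 92.9 CPM) and newly formed oligodendrocytes (1129 CPM) overlapped. Oligodendrocytes exceeded the D1 mean by 2.66-fold there. The other glia were below neurons and below free RNA (369 CPM in the PFC and 337 CPM in the striatum), with astrocytes at 300.1 and 286 CPM and microglia at 104 and 222 CPM. In the same astrocytes the median of 5 neuron genes was 0.0577 times free RNA in the PFC and 0.171 times in the striatum. In microglia it was 0.0629 and 0.709 times. How much of the Syt11 in these glia was free RNA was not tested. Syt11 was 95.7% of the family's UMIs in PFC oligodendrocytes (range 92.4% to 97.8%) and 92.6% in striatal ones, whereas in ENs Syt1 led with 57.1%. Mapt, the tau gene, had the most similar pattern (r = 0.963), then Pcdh9 (r = 0.944) and Elovl6 (r = 0.938). In the combinations outside neurons that were above free RNA, Syt11 in the 3 oligodendrocyte-lineage types of each tissue made up 6 of the 11.

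**Figure D3:**
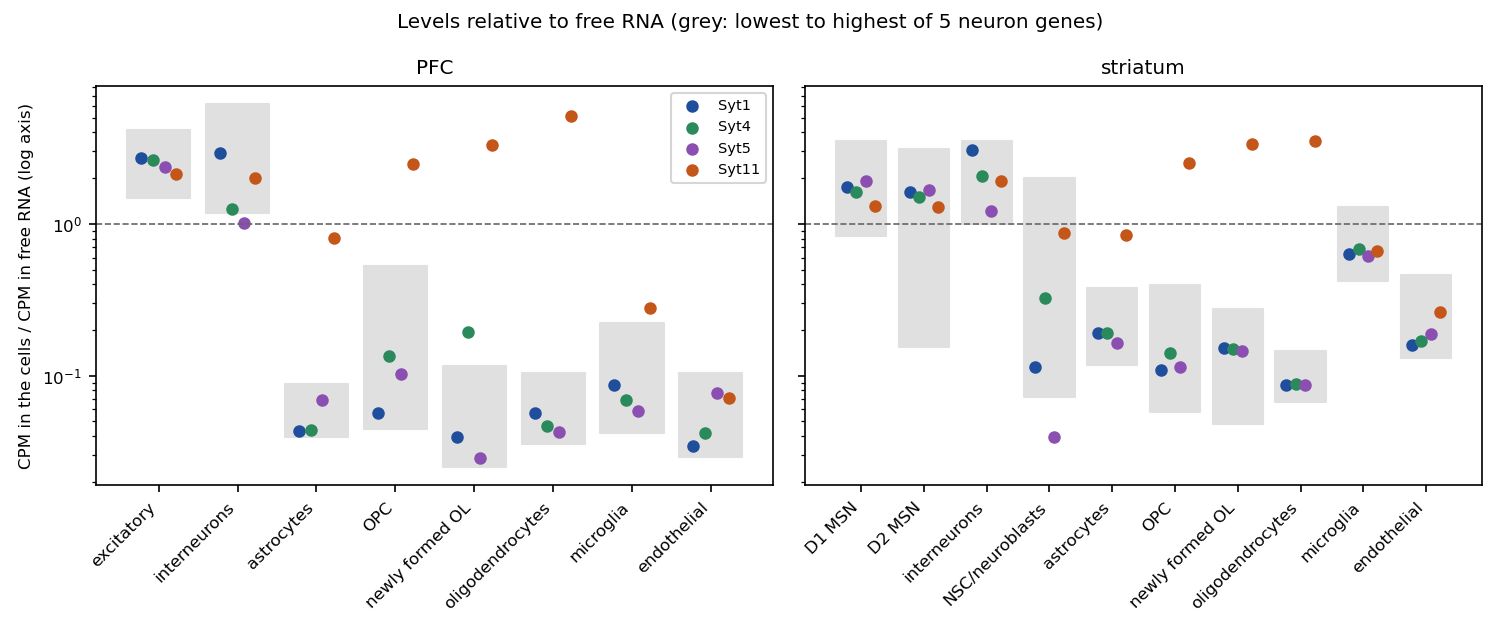
Levels of Syt1, Syt4, Syt5 and Syt11 in each cell type divided by the free RNA level of the tissue, on a log axis, with a dashed line at equality and grey boxes from the lowest to the highest of 5 neuron genes. Syt11 in the oligodendrocyte lineage lay above the line and above the boxes in both tissues, at 5.12 times free RNA in PFC oligodendrocytes, while Syt1, Syt4 and Syt5 lay below the line outside neurons.

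Pairs of neuron types within a tissue were compared by edgeR's quasi-likelihood test with the library as a block, and a gene was called at a Benjamini-Hochberg adjusted p under 0.05 over all genes and a fold above 1.5. Because the types were clustered from these same cells, calls and adjusted p-values here only describe the size of a difference against its spread. Between PFC ENs and INs, 6 of the 8 members that passed the low-count filter were called, where 25.6% of all genes were, and Syt2 and Syt9 were not tested. Relative to INs, ENs were higher in Syt5 (log2 fold change 1.19 ± 0.12 (SE), edgeR adjusted p = 2.9e-12), Syt7 (1.21 ± 0.15, 1.3e-09) and Syt4 (1.05 ± 0.08, 1.3e-15), each in 4 of 4 libraries without overlap. Syt6 (1.87 ± 0.43, 3.8e-04) and Syt10 (1.18 ± 0.42, 0.0219) were higher and Syt3 lower (-0.80 ± 0.25, 0.00968) also in 4 of 4 libraries, with overlapping ranges. These last 3 calls were lost without the second PFC WT library (3 calls left) or without the library block. With DESeq2 Syt10 and Syt3 were lost (adjusted p = 0.138 and 0.0918), and with the replicate block Syt3 was (0.0709). Syt1 (-0.13, adjusted p = 0.110) and Syt11 (0.08, 0.442) were not called. Syt6 and Syt10 passed the low-count filter through the ENs, with a UMI in 8 and 10 INs. The members' median log2 difference was 1.12 and that of all genes 0.01.

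The other genes of the release machinery were split between the neuron classes. Of 9 other C2 proteins tested, 5 were higher in ENs, among them Doc2a (1.87), a sensor of spontaneous and asynchronous release, and 1 was lower, its paralog Doc2b (-2.32). Of 21 vesicle fusion partners, 6 were higher in ENs, led by Sv2b (5.31), Stx1a (2.84) and Unc13b (2.23), and 6 were lower, led by Cplx3 (-7.11), Sv2c (-4.55), Unc13c (-3.38) and Cplx1 (-1.82). Thus the fast sensor Syt1 was not called between the classes while several of its complexin, Munc13 and SV2 partners were.

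Between superficial and deep-layer ENs, 3 of 9 members were called, all lower in superficial neurons, and 11.7% of all genes were called, with Syt2 not tested. Syt6 stood at 0 to 3.19 CPM in the superficial layers and at 26.2, 42.5, 17.2 and 24.1 CPM in the deep layers, a log2 difference of -4.42 ± 0.34 (edgeR adjusted p = 4.1e-11) with no overlap. It passed the low-count filter through the deep layers, where DL-Foxp2 averaged 89.9 CPM. The other deep subtypes averaged 7.03 CPM (DL-Tshz2), 1.68 CPM (DL-Nnat), 0.238 CPM (DL-Etv1) and 0 CPM (DL-Pou3f1). Syt10 (-1.09 ± 0.26, edgeR adjusted p = 0.00271) and Syt3 (-0.71 ± 0.20, 0.00904) were lower in superficial neurons in 3 of 4 libraries. Both of these calls were lost with DESeq2, without the second PFC WT library and without the library block, which left Syt6 as the 1 call in each case, and the Syt3 call was also lost with the replicate block (0.0915). Syt4 was higher in superficial neurons in 4 of 4 libraries without overlap (0.52 ± 0.07, edgeR adjusted p = 1.3e-06), at a fold below 1.5. Syt11 was lower (-0.18, edgeR adjusted p = 0.0479), also below that fold. It did not pass with DESeq2 (adjusted p = 0.107) or with the replicate block (edgeR adjusted p = 0.210). The subtypes did not follow the layers: mean Syt4 was higher in DL-Etv1 (779 CPM) and DL-Nnat (717 CPM) than in SL-Myh7 (568 CPM), and lowest in DL-Foxp2 (224 CPM). Mean Syt10 was lower in DL-Etv1 (5.73 CPM) and DL-Pou3f1 (4.64 CPM) than in SL-Cux2 (9.59 CPM) and SL-Myh7 (6.35 CPM). Of 8 other C2 proteins tested, Syt17 was higher (0.99) and Syt12 lower (-0.99) in superficial layers. Of 19 fusion partners none was higher and 3 were lower, Unc13c (-1.64), Cplx1 (-1.32) and Cplx2 (-1.25).

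D1 and D2 MSNs, the neurons of the direct and indirect pathways, had no member past both thresholds among 9 tested (all but Syt9), with 4.48% of all genes called. 3 members passed the adjusted p alone. Syt6 was lower in D1 in 4 of 4 libraries, at 76.7, 79.1, 99.9 and 74.9 CPM against 107, 103, 121 and 95.2 CPM (log2 -0.45 ± 0.07, edgeR adjusted p = 3.3e-08). Syt7 was higher in D1 in 4 of 4 (0.35 ± 0.09, 8.1e-04), and so was Syt5 (0.13 ± 0.04, 0.0174). Syt7 and Syt5 did not pass with the replicate block (edgeR adjusted p = 0.0665 and 0.253), with DESeq2 (0.211 and 0.565), without the library block (0.432 and 0.851) or without the second striatal WT library (0.057 and 0.287). Syt5 also failed without the second striatal Setd1a+/- library (0.0859), and Syt6 failed without the library block (0.064). Syt13 was the 1 other C2 gene called (0.64), and none of 20 fusion partners was.

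MSNs together differed from striatal INs in 4 of 9 members (Syt9 was not tested), where 30.9% of all genes were called. Syt2 was higher in MSNs, at 9.49, 17.6, 13.1 and 16.6 CPM against 3.03, 0.82, 1.23 and 4.71 CPM (log2 2.56 ± 0.36, edgeR adjusted p = 4.2e-06). It passed the low-count filter through the MSNs, where its level was beside that of free RNA (14.5 CPM), and 7 IN cells had a Syt2 UMI. Syt6 (1.71 ± 0.12, 7.4e-11) and Syt5 (0.66 ± 0.06, 1.6e-08) were higher too, and Syt1 was lower (-0.79 ± 0.04, 5.2e-13). All 4 held in 4 of 4 libraries without overlap, and the Syt5 fold fell to 1.5 or less when library size alone was used. Syt11 (-0.48) and Syt4 (-0.31) were lower below the fold limit. Striatal INs were higher than MSNs in 13 of 21 fusion partners, led by Cplx3 (-7.43), Stx1a (-1.73), Rims1 (-1.52) and Napb (-1.28), while Unc13c (2.29) and Sv2c (0.99) were higher in MSNs. Of 9 other C2 genes 4 were lower in MSNs, Syt17 (-5.37), Syt13 (-3.70), Doc2a (-3.69) and Rph3a (-2.98), and Doc2b (1.72) and Syt12 (1.19) were higher.

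**Figure D4:**
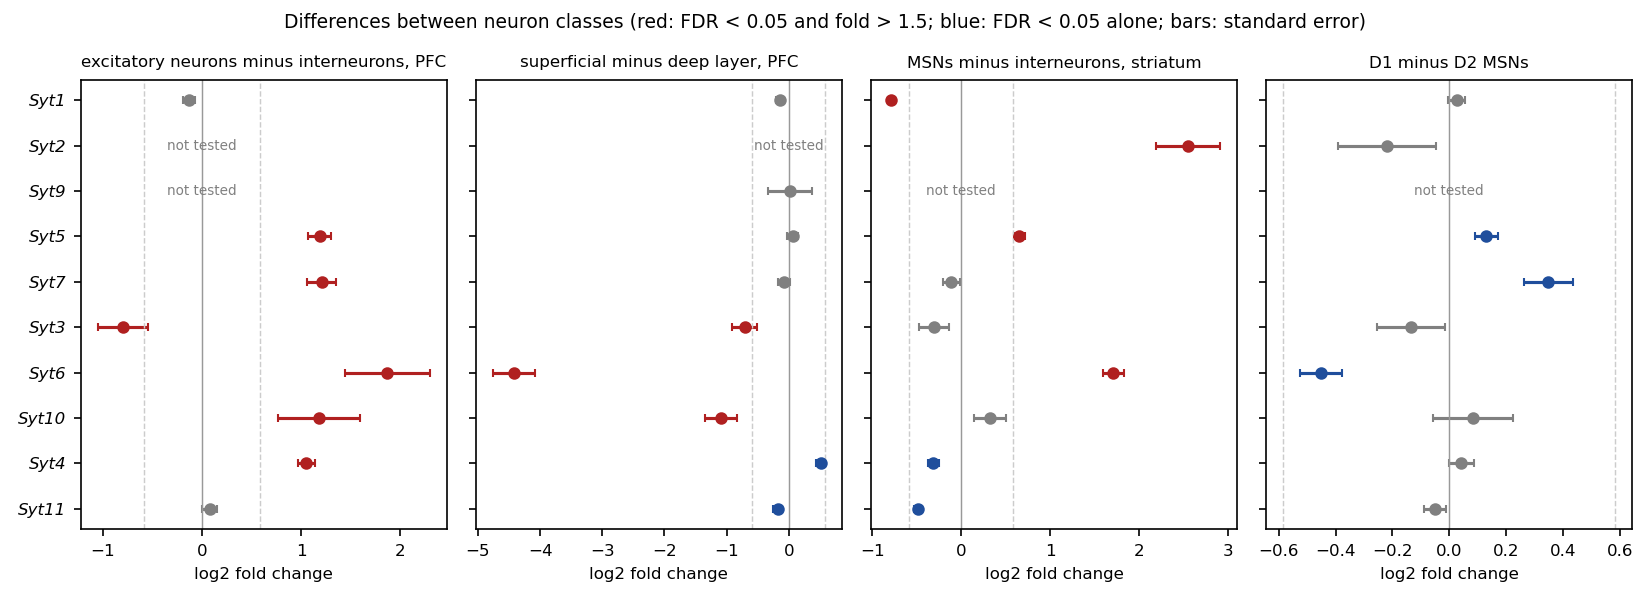
Log2 fold changes of the members in the 4 pairs of neuron classes, with bars of 1 SE, red points for calls (adjusted p under 0.05 and fold above 1.5), blue points for an adjusted p under 0.05 alone and dashed lines at the fold limit. The points show 6 calls between ENs and INs, 3 between layers, none between D1 and D2 MSNs and 4 between MSNs and striatal INs. The classes were clustered from these same cells, so the calls are descriptions.

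Cell types present in both tissues were compared over all 8 libraries, in which tissue, tissue preparation and the make-up of each cell group cannot be told apart. The interneuron groups differed in markers, with Gad1 at 588 CPM in the striatum and 1593 CPM in the PFC, and Gad2 at 438 and 1599 CPM. Of 31 tests of members, 12 gave calls, where 6.63% of all gene tests did. Interneurons had 3 of 8 members called with 11.8% of genes. Syt6 was higher in striatal INs, at 25.5 to 32.6 CPM against 0 to 14.3 CPM (log2 2.37 ± 0.48, edgeR adjusted p = 0.00351), Syt5 was higher (1.07 ± 0.17, 6.2e-04) and Syt1 lower (-0.85 ± 0.16, 0.00218), all without overlap. Syt6 passed the low-count filter through the striatal INs, and 8 PFC INs had a Syt6 UMI. Free RNA of Syt6 and Syt5 was also higher in the striatum (55.0 against 11.4 CPM and 196 against 114 CPM) and that of Syt1 lower (481 against 924 CPM), and its part in these differences was not tested. Syt10 was at 18.6 against 7.44 CPM (1.45, adjusted p = 0.0708), which passed with the replicate block (0.0427). Syt10 also passed the low-count filter through the striatal INs, and 10 PFC INs had a Syt10 UMI. Of 20 fusion partners 3 were higher in the striatum, led by Sv2b (3.49), and 6 lower, led by Cplx3 (-2.13).

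Syt11 was lower in striatal than in PFC oligodendrocytes, at 1311, 1120, 1168 and 1108 CPM against 2293, 1783, 1790 and 1698 CPM. The groups did not overlap, and the log2 difference was -0.63 ± 0.15 (edgeR adjusted p = 0.0455), with 2.70% of genes called. Leaving out a single library put the adjusted p between 0.05 and 0.181 in 7 of 8 cases, all but that of the second PFC WT library. In OPCs 0 of 6 members were called (0.158% of genes), in newly formed oligodendrocytes 0 of 2 (0.0663%) and in astrocytes 0 of 3 (10.4%). In astrocytes Syt4 averaged 38.4 CPM in the striatum and 10.2 CPM in the PFC (log2 1.51, edgeR adjusted p = 0.143) and Syt1 92.1 and 40.2 CPM (0.66, 0.552), with overlapping ranges. Both were called as higher in the striatum with the replicate block (0.0429 and 0.0463), and Syt4 passed the low-count filter through the striatal astrocytes. These levels were below free RNA (Syt4 201 and 232 CPM, Syt1 481 and 924 CPM), and of 4 neuron genes tested in astrocytes Meg3 was called higher in the striatum (log2 3.16), with a median of 0.81. Their part was not tested.

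Endothelial cells and microglia gave the other 8 calls, all higher in the striatum, among 6.06% and 21.4% of genes. Syt11 in endothelial cells stood at 90.6, 95.4, 88.7 and 78.3 CPM in the striatum and 29.6, 26.5, 25.5 and 24.1 CPM in the PFC (log2 1.76 ± 0.16, edgeR adjusted p = 1.9e-04), and the call held in every setting run. The other endothelial calls were Syt5 (2.44), Syt4 (2.10) and Syt1 (1.45), and those in microglia were Syt5 (4.06), Syt4 (3.09), Syt1 (1.86) and Syt11 (1.07). In microglia Syt5 and Syt4 passed the low-count filter through the striatal libraries, with PFC means of 6.67 and 16.1 CPM. All levels behind these 8 calls were below the free RNA level, and neuron genes moved with them. In microglia 4 of 4 neuron genes tested were higher in the striatum with a median log2 difference of 2.80, and in endothelial cells 3 of 5 were with a median of 2.24. Their part in these 8 calls was not tested.

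For genotype, edgeR's quasi-likelihood test was run on WT against Setd1a+/- libraries (2 against 2) within each type, and p-values measure the spread between these libraries only. No member was called in any of 31 tests over 8 PFC cell types, 39 over 6 excitatory subtypes or 59 over 10 striatal types, where 0%, 0% and 0.00544% of all gene tests were called. The striatal call needed a fold above 2 in place of 1.5. DL-Pou3f1, with 7 cells in its smallest library, was not tested. Unadjusted p was under 0.05 in 2 tests of each family, 6.45% of member tests against 1.70% of all tests in PFC types, 5.13% against 1.60% in subtypes and 3.39% against 2.62% in the striatum. With DESeq2 the corresponding counts were 2, 2 and 0, and with the replicate block 4, 4 and 5. Without the second PFC Setd1a+/- library they were 10 in PFC types and 13 in subtypes, and without the second striatal Setd1a+/- library 12 in the striatum, while the counts over all gene tests moved from 869, 715 and 1922 to 4347, 4163 and 4550. Leaving out each of the other libraries gave 1 to 7, 1 to 2 and 1 to 7 member tests. With a library left out, 1 genotype had a single library, which was assumed to vary like the other genotype.

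Both mutant libraries were below both WT libraries in 8 of 31 tests in PFC types, a pattern that 14.3% of all gene tests had, and above them in 2, against 12.0%. In excitatory subtypes they were below in 10 of 39 against 13.5%, and above in 0 against 13.2%. In the striatum they were below in 10 of 59, against 18.1%, and above in 2, against 12.9%. The tests within a tissue share libraries, and the subtypes are parts of the ENs.

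Syt10 gave the smallest p-values. In ENs it stood at 31.3 and 16.0 CPM in WT (118 and 115 UMIs) against 8.98 and 7.38 CPM in Setd1a+/- (42 and 26 UMIs), a log2 difference of -1.48 ± 0.36 (edgeR unadjusted p = 0.00714, adjusted p = 1.00). In DL-Tshz2 neurons it stood at 61.7 and 48.5 CPM in WT against 9.24 and 19.8 CPM in Setd1a+/-, from 28, 17, 4 and 3 UMIs (log2 -2.14 ± 0.54, edgeR unadjusted p = 0.00341). In DL-Foxp2 neurons the values were 50.6 and 29.9 CPM in WT against 15.9 and 7.70 CPM in Setd1a+/-, from 52, 57, 20 and 3 UMIs (log2 -1.55 ± 0.42, edgeR unadjusted p = 0.00681). Both mutant libraries were below both WT libraries in each of these groups, and none passed the adjusted test. The study named Syt10 among presynaptic genes with altered expression in the mutant PFC. Its single-cell tests compared cells of the genotypes, whereas libraries are compared here. The EN difference was called only when genes of low count were kept (edgeR adjusted p = 0.0144), and leaving out each library gave log2 values from -1.85 to -1.01. In D1 and D2 MSNs, where Syt10 had 295 and 179 UMIs, the log2 values were 0.19 ± 0.29 and 0.07 ± 0.37, each of which changed sign when a library was left out. In striatal INs the value was -0.50 ± 0.39 (edgeR unadjusted p = 0.220), from -0.80 to -0.21 when libraries were left out. The difference of the genotype effect between striatal and PFC INs was not called.

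Syt6 in ENs stood at 20.7 and 32.2 CPM in WT against 12.6 and 15.0 CPM in Setd1a+/- (log2 -0.95 ± 0.33, edgeR unadjusted p = 0.0298, adjusted p = 1.00). Within DL-Foxp2 neurons the difference was -0.20 ± 0.50 with overlapping libraries, and it ran from -1.08 to 0.47 when libraries were left out. The share of DL-Foxp2 cells among ENs was 29.5% and 29.5% in WT and 29.2% and 14.3% in Setd1a+/-, the last from the second mutant library. Without that library, which leaves 1 mutant library, the differences were -1.13 in ENs and -1.08 in DL-Foxp2 neurons. Without the second WT library, which leaves 1 WT library, they were -0.50 and 0.24. Syt1 and Syt11, the 2 members with the most UMIs, differed by -0.23 ± 0.24 and -0.22 ± 0.19 in ENs, and Syt11 by -0.16 ± 0.22 in PFC oligodendrocytes, none past the test. In striatal NSC/neuroblasts Syt4 was at 47.5 and 41.1 CPM in WT against 83.5 and 89.7 CPM in Setd1a+/- (edgeR unadjusted p = 0.0209) and Syt11 at 333 and 393 against 252 and 196 CPM (0.0243), both with adjusted p = 1.00.

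**Figure D5:**
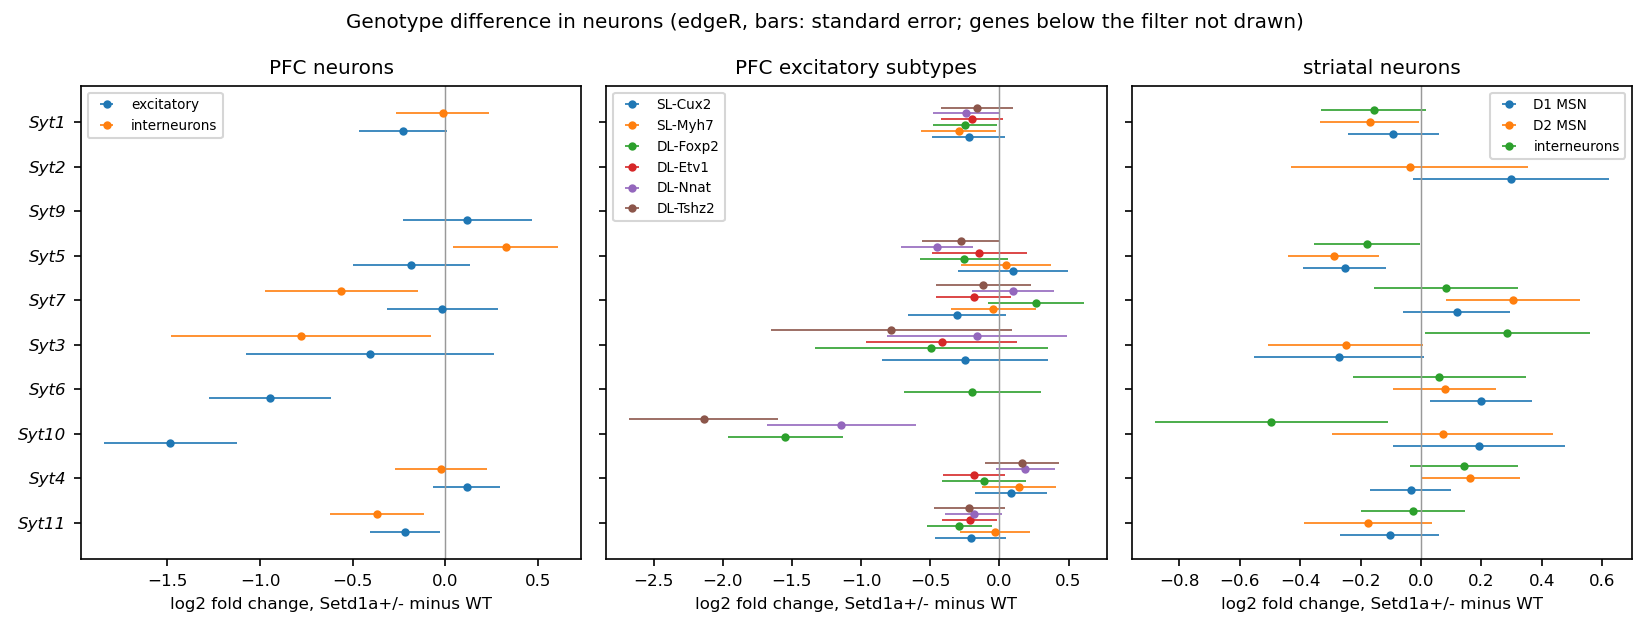
Log2 fold changes, Setd1a+/- minus WT, of the members in PFC neurons, PFC excitatory subtypes and striatal neurons, with bars of 1 SE and a line at no change. The Syt10 points lie left of the line in ENs (-1.48) and in the 3 deep-layer subtypes in which it was tested, and no point passed the adjusted test.

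The genotype effect was also compared between groups as an interaction. Between D1 and D2 MSNs 0 of 9 members were called, where 0.0637% of all genes were (7 by edgeR and 0 by DESeq2). Syt4 had the lowest of the members' p-values (log2 -0.18, edgeR unadjusted p = 0.0418). Between the tissues no member was called and none had an unadjusted p under 0.05, with 0 of 49915 gene tests called by edgeR or DESeq2 and 1103 with an unadjusted p under 0.05 by edgeR. No gene of the other C2 or fusion partner lists was called for genotype in any cell type.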

How the data were processed

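Single-cell RNA-seq was carried out on 8 libraries of mouse PFC and striatum, 2 per tissue and genotype, each from 2 pooled mice. The authors aligned reads and counted UMIs with Cell Ranger 3.0.2 on mm10 and clustered cells with Seurat 3.2.0 (versions from the submitters' processing notes). The deposited matrices hold raw UMI counts per gene and barcode and include barcodes without a cell. The cells and cell types used were those of the authors' deposited annotation, in which every cell had at least 800 genes and under 10% mitochondrial UMIs; no doublet caller was run, and how doublets were treated is not given in the sources used here. The deposited expression tables were not used because their gene column holds row numbers. There were 0 columns without a sample.

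UMIs were summed per library and cell type and tested with edgeR 4.0.16 in R 4.3.3 (glmQLFit and glmQLFTest, TMM scaling, genes kept by filterByExpr at a minimum count of 10, p-values adjusted by Benjamini-Hochberg over all genes of a fit). A type entered a fit only with 10 or more cells in every library. Genes were called at an adjusted p under 0.05 with a fold above 1.5, or above 2 for genotype in the striatum. SE was taken as the log2 fold change over the square root of F. Genotype fits used the 4 libraries of a tissue, neuron pairs had the library as a block, and tissue fits used 8 libraries. The scripts were tested on simulated data. DESeq2 1.42.0, other scalings, no filter, thinning of cells to 1000 UMIs, blocks and the omission of each library were the alternatives. Intervals and the floor of 3 counts cover counting error only.

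The study's methods pair a WT with a mutant library in each replicate. Over genes with at least 200 UMIs, deviations from the group mean correlated within the 2 pairs at a median r of 0.505 over PFC types and 0.452 over striatal types. The 10 members, the lists of 13 other C2 proteins and 21 fusion partners, and the rule for named genes were chosen with earlier results of these data known. That rule takes every member, at most 4 called genes per direction from each list, and for members with at least 500 UMIs the 3 genes with the highest r over the 18 cell types among genes of at least 10 CPM in some type. Those not given above were Nprl2, Gadd45gip1 and Ndufb4 for Syt3, Slc6a17, Hivep2 and Atp6v0a1 for Syt7, and Gm10419, Ripor2 and Fbxl16 for Syt10. Gene positions are from GENCODE vM21 and promoters from RefSeq.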

Additional observations from a re-analysis of the deposited data

Results flagged for a closer look

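The highest or lowest of the 4 libraries of a tissue was set against the other 3 for 97 combinations of member and cell group, and 3 stood apart by Dixon's criterion. Chance alone gives about 1 in 20 groups such a library, or 5%. Syt11 in PFC oligodendrocytes was 2293 CPM in the first WT library and 1698 to 1790 CPM in the others. Syt11 in DL-Tshz2 neurons was 910.7 CPM in the same library and 676.8 to 700.4 CPM in the others. Syt6 in D1 MSNs was 99.92 CPM in the first Setd1a+/- library and 74.89 to 79.05 CPM in the others.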

How the results depend on the processing

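No member was called for genotype under most settings. The exceptions were 1 call (Syt10 in ENs) in the PFC with no filter on low counts, and a range of 0 to 1 call in the striatum when libraries were left out, the 1 being Syt5 in endothelial cells without the second Setd1a+/- library. The 6 calls between ENs and INs ranged from 3 to 6 when libraries were left out and were 3 without the library block. The 3 calls between layers ranged from 1 to 3 when libraries were left out, and were 1 with DESeq2 and 1 without the library block. The 12 calls between tissues became 21 without the filter and ranged from 6 to 16 when libraries were left out, the lowest without the second striatal WT library. In microglia, the Syt11 and Syt1 calls were each lost on leaving out the first PFC WT, the second PFC Setd1a+/- or either striatal WT library, and Syt11 also without the first and Syt1 without the second striatal Setd1a+/- library. In endothelial cells, Syt5, Syt4 and Syt1 were each lost without the first PFC WT or the second striatal WT library, Syt5 and Syt1 also without the first PFC Setd1a+/- and Syt1 also without the second striatal Setd1a+/- library. Calls between D1 and D2 MSNs stayed at 0 and those between MSNs and striatal INs at 3 to 4. The causes were not tested.

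With the replicate number as a block, for which the study's methods give the pairing of genotypes, calls were 5 between ENs and INs and 2 between layers (Syt3 lost in both) and 15 between tissues, and no other count of member calls changed. In the tissue tests the block also joins PFC and striatal libraries of the same number, a link that the methods do not state. The block moved the count over all genes from 0 to 26 in PFC types, 0 to 11 in subtypes and 4 to 79 in the striatum. With no filter these counts were 63, 28 and 110, and with DESeq2 1, 0 and 5. Leaving out libraries gave 25 to 122, 7 to 306 and 67 to 402. Over all genes the tissue calls were 2837, and 6957 without the filter, D1 against D2 467 and 243 with DESeq2, and layers 1205 and 778. Of 241 member tests, 119 changed sign under some alternative, 108 of them in the 175 genotype tests, and none of the 25 called tests did. For 56 member results, those with an unadjusted p under 0.05 and others named above, 540 values kept direction and call, 44 lost the call, 12 gained it and 7 changed sign. The last were genotype differences of Syt11 in PFC oligodendrocytes (-0.31 to 0.013 without single libraries), Syt6 in DL-Foxp2 neurons (-1.08 to 0.47), and Syt10 in D1 (-0.16 to 0.60) and D2 MSNs (-0.38 to 0.65, and -0.16 after thinning). The 48 combinations above free RNA shared 44 with the 48 found after thinning, 47 with barcodes of 1 to 50 UMIs and 47 with all libraries summed. The combinations that left or entered were of Syt2, Syt3 and Syt9.

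Genotype tests without a library compare 2 with 1 and assume that the lone library varies like the other genotype. With 2 libraries per genotype, the lack of a call does not show that a member was unchanged, for small or larger differences, and Syt2, Syt9 and Syt10 also had few UMIs.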
